A study of Mus musculus with 2 samples.

Results

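Gene desert peaks are the accessible regions of late retinal progenitor cells (RPCs) that lie farthest from any known promoter. They were taken from both ATAC-seq peak lists as the distinct intervals on chromosomes 1 to 19, X and Y whose summit lay outside every GENCODE gene body and more than 100 kb from every transcript start. This rule gave 2501 of 117165 control peaks (2.13%) and 2510 of 124935 Ngn3-OE peaks (2.01%), or 5011 of 242100 peaks in all. Merged where they overlapped, they formed 3291 distinct desert regions, of which 51.0% were shared by both libraries, 24.4% control-only and 24.6% Ngn3-OE-only, the shares against which the counts of regions below are to be read. The rule used position only, so neither the height of a peak nor its presence in the other library played a part in the choice.

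The study asked how Ngn3, a basic helix-loop-helix (bHLH) transcription factor that drives neurogenesis, changes the chromatin of late RPCs, the dividing cells of the newborn retina whose later progeny include rods, bipolar neurons and Müller glia. Retinas of mouse pups (strain not given in the sources used here) received, by in vivo electroporation at P1, either a control plasmid or one that overexpresses Ngn3, and GFP-labelled cells of the retina were collected by cell sorting at day 2 after electroporation (DAE 2), so both groups carry the GFP marker and the electroporation. In the paper's staining on that day, a smaller share of GFP-labelled cells carried Ki67, a mark of dividing cells, in Ngn3-OE than in control. Each group, control and Ngn3-OE, was 1 library of 1 biological sample, and the sources used here do not say how many pups or retinas it pooled. Having 1 library in each group, the study allows no test between conditions, and the differences below describe these libraries with counting error only.

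A gene desert is a long stretch of the genome with no genes in it. Many deserts flank genes that control development, and they are known to hold enhancers, short regulatory sequences that transcription factors bind and that can act on a promoter far away by looping. Enhancers in use are open to the transposase of ATAC-seq, which cuts DNA that nucleosomes leave free, so a peak in a desert marks a candidate distal regulatory sequence. Other desert peaks lie at sites of CTCF, a zinc finger protein that anchors chromatin loops. A peak alone does not say which gene, if any, the sequence acts on, and the flanking protein-coding genes named below are an address and not a target.

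To show the letters behind the patterns described below, 10 desert peaks are given by their sequence: strong peaks present in both libraries, peaks whose rank moved, peaks of 1 library, and peaks beside retinal regulators. Each is the summit base with 100 bp on either side on the plus strand of mm10 (GRCm38.p6 reference), read 5′ to 3′ and named by its coding flanks. Capitals mark matches on either strand to the E-box core CATCTG bound by proneural bHLH factors, the SOX motif CCATTGT or CCTTTGT, the OTX/CRX homeodomain core GGATTA, the homeobox core TAATTA, the AP-1 motif TGANTCA and the CTCF consensus. The CTCF consensus can contain the E-box core, and the last bases of GGATTA can be the first of TAATTA, so these matches may share letters. The first 3 sequences were peaks of both libraries:
Atp5g3 to Lnpk, chr2:74426863-74427063: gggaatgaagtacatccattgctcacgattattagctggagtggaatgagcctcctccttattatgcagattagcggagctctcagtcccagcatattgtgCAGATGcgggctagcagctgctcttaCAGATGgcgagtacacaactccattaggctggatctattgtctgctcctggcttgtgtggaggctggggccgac
Sall1 to Tox3, chr8:90244748-90244948: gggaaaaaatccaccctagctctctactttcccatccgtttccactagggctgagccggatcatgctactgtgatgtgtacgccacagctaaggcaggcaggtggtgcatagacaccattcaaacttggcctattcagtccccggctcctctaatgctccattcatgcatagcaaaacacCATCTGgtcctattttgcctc
Dsel to Cntnap5a, chr1:114528703-114528903: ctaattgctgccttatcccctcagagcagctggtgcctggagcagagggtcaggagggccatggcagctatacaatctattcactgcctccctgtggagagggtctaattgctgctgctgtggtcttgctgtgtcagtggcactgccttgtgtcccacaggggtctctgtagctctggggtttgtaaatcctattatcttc
The next pair rose and fell in rank from control to Ngn3-OE:
App to Cyyr1, chr16:85370274-85370474: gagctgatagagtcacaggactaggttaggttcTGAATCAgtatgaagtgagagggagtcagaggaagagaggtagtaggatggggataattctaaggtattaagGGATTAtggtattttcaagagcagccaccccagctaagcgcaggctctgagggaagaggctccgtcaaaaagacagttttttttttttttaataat
Tenm3 to Aga, chr8:51605498-51605698: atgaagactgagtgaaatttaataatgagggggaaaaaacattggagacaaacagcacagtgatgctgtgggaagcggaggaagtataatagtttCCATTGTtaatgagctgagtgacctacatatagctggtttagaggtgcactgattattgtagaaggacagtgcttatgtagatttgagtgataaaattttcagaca
A further pair was called in the Ngn3-OE library alone:
Glra2 to Gemin8, chrX:165494617-165494817: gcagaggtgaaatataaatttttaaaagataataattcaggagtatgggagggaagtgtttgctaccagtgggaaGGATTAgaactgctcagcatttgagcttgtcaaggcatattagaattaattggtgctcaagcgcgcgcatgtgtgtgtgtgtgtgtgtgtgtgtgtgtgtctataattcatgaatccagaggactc
Gnat3 to Gnai1, chr5:18087884-18088084: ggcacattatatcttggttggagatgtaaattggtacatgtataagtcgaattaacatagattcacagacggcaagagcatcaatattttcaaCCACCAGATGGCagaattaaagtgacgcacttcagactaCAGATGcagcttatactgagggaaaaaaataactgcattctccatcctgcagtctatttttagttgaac
The last 3 lay beside the retinal regulators Meis2, Zeb2 and Thrb:
Meis2 to Tmco5, chr2:116322139-116322339: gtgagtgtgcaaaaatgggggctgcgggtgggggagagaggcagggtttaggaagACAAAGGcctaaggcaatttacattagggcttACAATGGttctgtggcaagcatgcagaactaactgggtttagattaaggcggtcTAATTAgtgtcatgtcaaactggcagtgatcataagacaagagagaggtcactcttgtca
Zeb2 to Acvr2a, chr2:47834143-47834343: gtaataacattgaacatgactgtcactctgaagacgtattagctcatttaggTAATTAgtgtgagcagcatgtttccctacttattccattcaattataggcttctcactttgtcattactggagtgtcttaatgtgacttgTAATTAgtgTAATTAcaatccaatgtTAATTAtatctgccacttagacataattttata
Rarb to Thrb, chr14:17431882-17432082: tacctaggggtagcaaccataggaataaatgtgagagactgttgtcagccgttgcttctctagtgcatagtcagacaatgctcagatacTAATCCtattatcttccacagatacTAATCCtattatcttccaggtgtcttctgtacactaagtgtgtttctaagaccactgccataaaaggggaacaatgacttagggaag

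The libraries were first checked against their labels. The Ngn3-OE list had 1 peak within 10 kb of Neurog3, the gene of Ngn3, with 1591 tags at its summit, and the control list had 0. All 8 progenitor markers, among them Pax6 and Sox2, had a peak within 1 kb of a start in both libraries. Of 4 microglia markers 1 had such a peak in control and 2 in Ngn3-OE, of 4 endothelial markers 2 and 1, of 4 pigment epithelium markers 3 and 3, and of 4 lens markers 1 and 1. Aif1 and Cx3cr1 of microglia, Cdh5 and Pecam1 of endothelium and Rpe65 of pigment epithelium had no such peak in either library, while other genes of these lists did. The part that other cells had in any desert peak was not tested. The smallest local background in the peak calls, a value that scales with depth, was 0.983 times as high in Ngn3-OE as in control.

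Desert territory, the part of the assembled genome that meets the same rule, came to 180.8 Mb of 2647.5 Mb (6.83%) in 1488 gene-free gaps. It held 13.8 control peaks and 13.9 Ngn3-OE peaks per Mb, against 46.5 and 49.6 per Mb in the rest of the genome. The density in deserts was therefore 0.298 times that elsewhere in control (95% CI 0.286 to 0.310) and 0.280 times in Ngn3-OE (95% CI 0.269 to 0.291). These and all further intervals cover counting error only, and they are too narrow to the extent that neighbouring peaks are not independent. Density fell with distance from the nearest start, as the plot of density by distance shows. In control it was 30.9 peaks per Mb at 10 to 25 kb, 14.99 at 100 to 150 kb, 13.3 at 200 to 300 kb and 8.29 at 300 to 500 kb. The intervals of the bins between 150 and 300 kb overlapped, so no decline was detectable there.

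**Figure D1:**
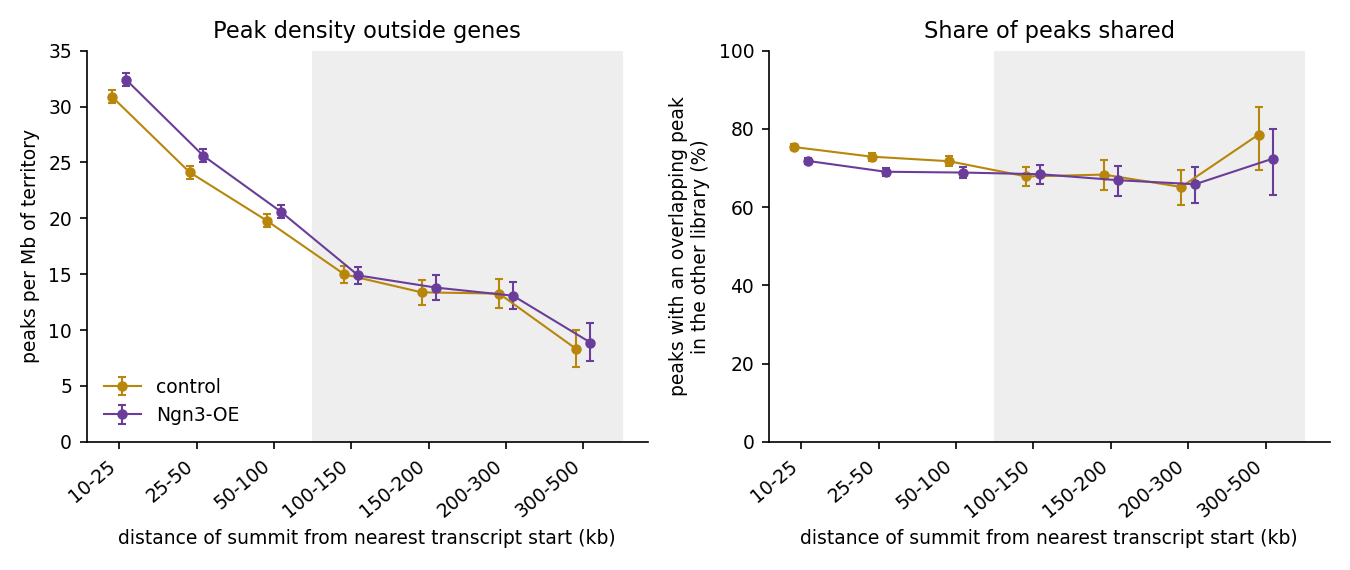
Peaks outside genes by the distance of their summit from the nearest transcript start, in control (gold) and Ngn3-OE (purple), with the desert bins shaded. The left panel gives peaks per Mb of territory with Poisson intervals and the right panel the percentage with an overlapping peak in the other library with Wilson intervals, both at 95%. In control the density fell from 30.9 to 8.29 peaks per Mb, and in Ngn3-OE from 32.4 to 8.88.

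Most desert peaks lay close to the limit of the rule. The median distance from a start was 141 kb in control and 142 kb in Ngn3-OE, and 524 peaks of each list lay past 200 kb. Just inside the limit were control peaks at 100.005 kb (Nudt12 to Efna5, 7 tags) and 100.02 kb (Cdh6 to Cdh9, 5 tags). Just outside were control peaks at 99.972 kb (Sec16b to Brinp2, 4 tags) and 99.955 kb (Gm6569 to Adgrb1, 3 tags). In Ngn3-OE the nearest inside were at 100.026 kb (6 tags) and 100.032 kb (11 tags), and the nearest outside at 99.931 kb (5 tags) and 99.926 kb (7 tags). A summit far from a start can still lie near the end of a gene body, which was so for 46 control peaks (1.84%) and 50 Ngn3-OE peaks (1.99%) within 10 kb of one. The peaks farthest from a start were on chromosome 1 between Dsel and Cntnap5a, the latter a neuronal cell adhesion gene of the contactin-associated family. There a shared peak, printed above, lay 565 kb from the nearest start with 88 tags in control and 68 in Ngn3-OE. A control-only peak of 8 tags stood in the same desert at 569.9 kb.

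Desert peaks had fewer tags than the whole lists and lower GC than intergenic peaks nearer to genes. The tags at a summit, recovered from the deposited fold enrichment and −log10 p, had a median of 7 in control desert peaks (quartiles 5 and 11) and 6 in Ngn3-OE (quartiles 4 and 11), against 9 over each whole list. The median width was 122 bp and 117 bp. Intergenic peaks at 10 to 100 kb from a start, called nearer intergenic peaks here, had a median of 7 tags in both lists and widths of 124 bp and 122 bp. The window of 100 bp on either side of a desert summit had a median GC content of 45.3% in control and 45.8% in Ngn3-OE, against 48.8% for nearer intergenic peaks in both and 38.5% over all desert territory. Repeats made up 41.9% of the bases of that territory, yet only 9.04% of control and 9.48% of Ngn3-OE desert summits fell in a base marked as repeat. Near-identical copies elsewhere in the genome (at least 95% identity over 90% of the peak) were found for 93 control and 98 Ngn3-OE desert peaks, or 3.72% and 3.90%.

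The X chromosome was the poorest in desert peaks among those that held any. It had 57 control and 58 Ngn3-OE desert peaks in 11.8 Mb of territory, or 4.82 and 4.91 per Mb, and no other chromosome with a desert peak was below 8.24 per Mb in either library. On the Y chromosome no desert peak was called in 2.67 Mb, which allows up to 1.12 peaks per Mb. The densest territory was on chromosome 7 and chromosome 19, with 21.3 control peaks per Mb each and 20.5 and 20.7 Ngn3-OE peaks per Mb. The numbers of X and Y chromosomes in the pooled cells are not given in the sources used here.

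Desert regions often lay near one another. The median distance to the next region was 6.09 kb, 1917 of 3291 regions (58.2%) had another within 10 kb, and 2724 (82.8%) within 50 kb. The shares that an even spread over the territory would give were not computed, so these values alone do not show clustering. Of the 1488 gaps, 855 (57.5%) held at least 1 region. The 70 gaps with 10 regions or more held 1079 regions, or 32.8% of all. Other long gaps were empty: the gap between 9130204L05Rik and Pglyrp3 on chromosome 3, in the epidermal differentiation region, had 0.72 Mb of desert territory and no region in either library, and one between Cadm2 and Speer2 on chromosome 16 had 0.601 Mb and none.

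Peaks within a desert are ranked here by −log10 q, so that the strongest is the one of highest −log10 q. The gap with the most regions ran for 533 kb on chromosome 2 (178487367 to 179020118) between Cdh26 and Cdh4, which both encode cadherins, calcium-dependent adhesion proteins. It held 38 regions, of which 22 were shared, 12 control-only and 4 Ngn3-OE-only. Its strongest peak (chr2:178728564-178728749) had 24 tags in control and 25 in Ngn3-OE, so this desert was dense but had no peak in the top 10% of either list. A gap of 422 kb on chromosome 15 before Adgrb1, an adhesion G protein-coupled receptor of neurons and glia, held 35 regions with 20 shared, 6 control-only and 9 Ngn3-OE-only. Its 3 strongest peaks had more tags in Ngn3-OE than in control, with 40 and 61, 33 and 50, and 15 and 28 tags in control and Ngn3-OE. The gap of 435 kb before Rbfox1, a neuronal splicing regulator on chromosome 16, held 34 regions, and its strongest peak had 44 tags in control and 47 in Ngn3-OE.

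The gap of 579.7 kb from the side of Sall1 up to Tox3 on chromosome 8 held 32 regions, with 16 shared, 8 control-only and 8 Ngn3-OE-only. Its strongest peak, printed above, lay 2.19 kb past the end of Tox3 and had 90 tags in control and 67 in Ngn3-OE. The second strongest (chr8:90058618-90058943) had 32 tags in control and 11 in Ngn3-OE, and the third had 17 in control and 23 in Ngn3-OE. A long gap of 933 kb on chromosome 2 between Gm10800 and B230118H07Rik held 28 regions, 2 of them with near-identical copies. Its strongest peak (chr2:101261517-101261712), which had no copy, was higher after Ngn3 overexpression, with 18 tags in control and 62 in Ngn3-OE. The second had 47 tags in control and 40 in Ngn3-OE, and the third 45 and 47. The gap of 583 kb between Epha7, an ephrin receptor of axon guidance, and Map3k7 on chromosome 4 held 26 regions, and its strongest peak had 46 tags in control and 31 in Ngn3-OE. Across the 70 gaps with 10 regions or more, 31 had more Ngn3-OE-only than control-only regions, 31 had fewer and 8 had as many.

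**Figure D2:**
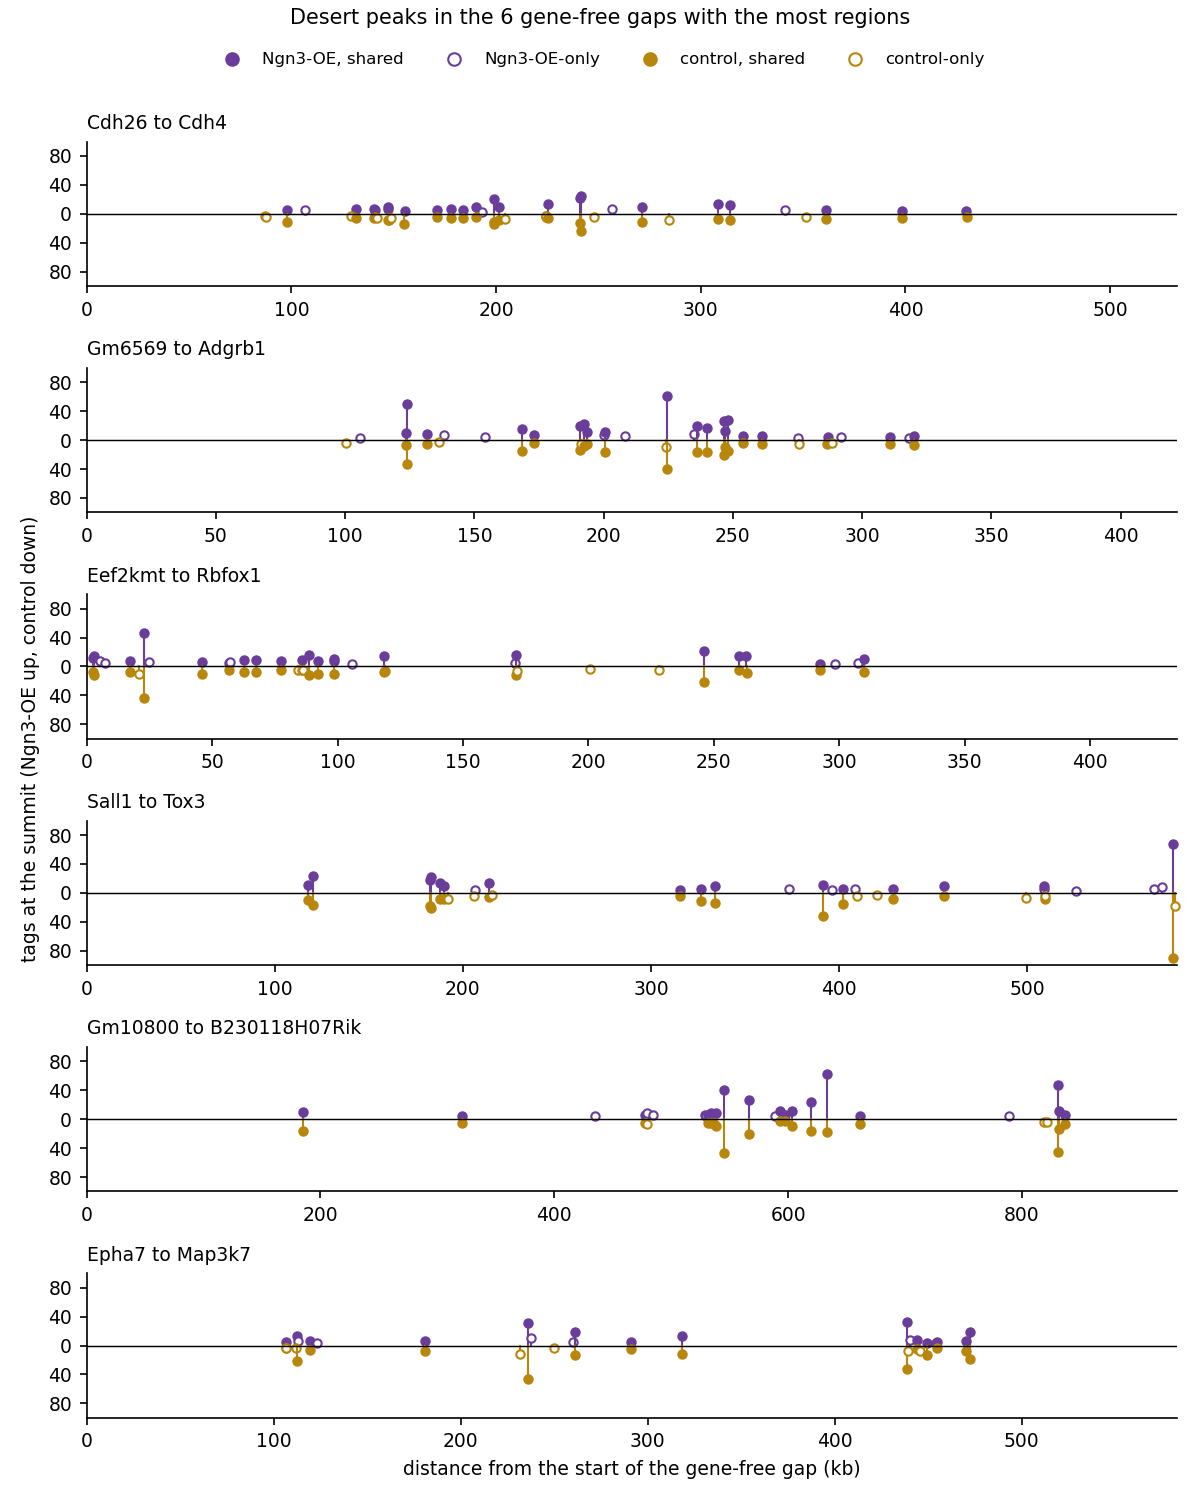
Desert peaks along the 6 gene-free gaps with the most regions, named by their coding flanks, with the distance from the start of the gap in kb on the x axis. Each stem is 1 peak, its height the tags at the summit, drawn upward for Ngn3-OE (purple) and downward for control (gold), with filled circles for shared and open circles for one-library peaks. Tall stems stood in pairs at the same place in both libraries, and the open circles stayed at or below 18 tags.

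Deserts beside genes that control retinal cell fate were denser in peaks than other deserts. Of 109 regulators on a list of retinal transcription factors, 28 were a coding flank of at least 1 desert region. All deserts beside any of the 109, with or without a peak, covered 8.99 Mb, or 4.97% of the territory, and held 204 control and 209 Ngn3-OE desert peaks, or 8.16% and 8.33%. The density there was 22.7 peaks per Mb in control and 23.3 in Ngn3-OE, which was 1.70 times (95% CI 1.47 to 1.96) and 1.74 times (95% CI 1.51 to 2.0) that of the other deserts. With Sall1 left off the list, a choice made after its count was seen, the ratios were 1.5 (95% CI 1.28 to 1.75) and 1.54 (95% CI 1.32 to 1.79).

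The other gene lists gave ratios on both sides of 1. Deserts beside adhesion and guidance genes, such as cadherins, contactins and ephrin receptors, made up 25.3% of the territory and had 0.847 times the density of other deserts in control (95% CI 0.771 to 0.931) and 0.793 times in Ngn3-OE (95% CI 0.721 to 0.873). Beside signalling genes the ratio was 0.684 in control (95% CI 0.454 to 1.03) and 0.832 in Ngn3-OE (95% CI 0.573 to 1.21), so no difference was detectable with 23 and 28 peaks. Deserts beside olfactory, vomeronasal and taste receptor genes covered just 0.577 Mb with 17 control and 14 Ngn3-OE peaks, at 2.14 (95% CI 1.33 to 3.44) and 1.75 (95% CI 1.04 to 2.96) times the density of other deserts.

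Sall1, a zinc finger repressor on the minus strand of chromosome 8 (89027235 to 89044162), had the most desert regions of any regulator on the list. It flanked 45 regions between 245 and 1202 kb from its 5′ end, of which 26 were shared, 9 control-only and 10 Ngn3-OE-only. Zeb2, a zinc finger and homeodomain repressor of neural development, followed with 29 regions (16 shared, 8 control-only, 5 Ngn3-OE-only), its strongest with 27 tags in control and 16 in Ngn3-OE, although these lay as far as 346 to 3547 kb from its 5′ end. Sox9, which marks RPCs and Müller glia and is known for the long deserts on either side of it, had 25 regions with 15 shared and 5 of each library alone. The strongest Sox9 peak by −log10 q (chr11:112953563-112953787) had 21 tags in control and 36 in Ngn3-OE, while another of its peaks had 46 in control and 20 in Ngn3-OE.

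Regulators of postmitotic neurons had desert regions as well, and they varied in the balance of one-library regions. Isl1, a LIM homeodomain factor of retinal ganglion and bipolar cells, had 17 regions with 12 shared. Its strongest had 28 tags in control and 39 in Ngn3-OE, and another of its peaks had 31 in control. Tfap2b, an AP-2 factor of amacrine and horizontal cells, had 14 regions with 4 control-only and 2 Ngn3-OE-only. Its strongest had 17 tags in control and 31 in Ngn3-OE, and another of its peaks had 31 in control and 16 in Ngn3-OE. Thrb, the thyroid hormone receptor of cone development, had 9 regions, of which 5 were shared, 4 Ngn3-OE-only and none control-only. Sox11, a factor of young neurons, had 10 regions with 1 control-only and 5 Ngn3-OE-only, and its strongest had 16 tags in control and 24 in Ngn3-OE.

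Progenitor factors and others varied too. Sox2, which maintains RPCs, had 10 regions with 4 control-only and 1 Ngn3-OE-only, and its strongest (chr3:35084482-35084785) had 50 tags in control and 28 in Ngn3-OE. Nr2f1, an orphan nuclear receptor, had 9 regions with 3 control-only and none Ngn3-OE-only. Meis2, a homeodomain factor of progenitors, had 13 regions with 2 control-only and 3 Ngn3-OE-only, and 41 and 47 tags at its strongest. Klf4, a zinc finger factor, had 9 regions with 1 control-only and 2 Ngn3-OE-only. Over the 28 regulators, 15 had more Ngn3-OE-only than control-only regions, 8 had fewer and 5 had as many, on counts of at most 10 a gene, so single balances of this size could not be told from counting error.

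**Figure D3:**
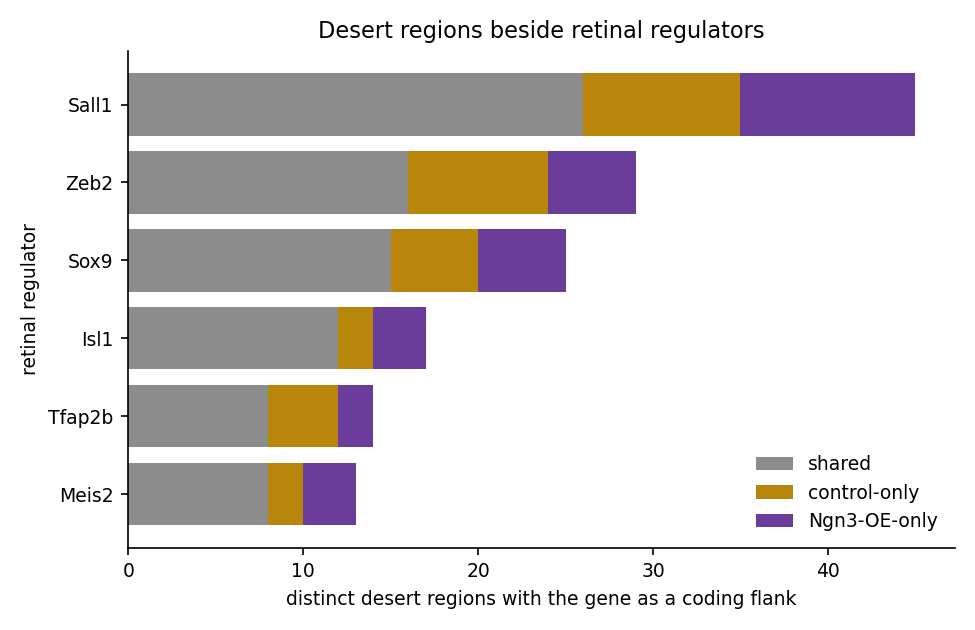
The number of distinct desert regions for which each of the 6 retinal regulators with the most was the nearest protein-coding gene on 1 side, split into shared (grey), control-only (gold) and Ngn3-OE-only (purple). Sall1 had 45 regions, Zeb2 29 and Sox9 25, and the other 3 had between 13 and 17.

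To ask how far the desert landscape of control and Ngn3-OE late RPCs coincided, peaks were counted as shared when at least 1 bp lay within some peak called in the other library. Shared were 1698 control desert peaks (67.9%, 95% CI 66.0 to 69.7) and 1702 Ngn3-OE desert peaks (67.8%, 95% CI 66.0 to 69.6). One-library peaks were thus 803 and 808, or 32.1% and 32.2% of desert peaks, against a background of 21.7% of all control peaks and 26.6% of all Ngn3-OE peaks. Without peaks that had near-identical copies, 68.3% of control and 68.4% of Ngn3-OE desert peaks were shared.

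Sharing followed the height of the peak. Of control desert peaks with at most 4 tags 35.9% were shared, of those with 7 to 10 tags 78.8%, and of those with 11 to 20 tags 93.0%. All 239 control and all 244 Ngn3-OE desert peaks with 21 tags or more were shared, and a count of 0 one-library peaks allows up to 1.26% and 1.23% among such peaks. Nearer intergenic peaks of that height were shared in 99.7% (2629 of 2636) and 99.8% (2786 of 2791), with intervals of both differences that include 0. One-library peaks rested on a median of 5 tags in control and 4 in Ngn3-OE, against 8 for shared desert peaks in both, and 554 of the 803 (69.0%) and 591 of the 808 (73.1%) had 5 tags or fewer.

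Fewer desert peaks than nearer intergenic peaks were shared. The difference was −5.95 percentage points in control (67.9% against 73.8%, 95% CI −7.89 to −4.06) and −2.52 points in Ngn3-OE (67.8% against 70.3%, 95% CI −4.47 to −0.63). Within bands of equal tags, control desert peaks differed by −2.38 to −3.58 points up to 20 tags, with intervals that excluded 0 at 7 to 10 and at 11 to 20 tags. In Ngn3-OE the bands gave −1.37 points at 1 to 4 tags, 4.67 at 5 to 6 (95% CI 0.55 to 8.68, so there more desert peaks were shared), −0.523 at 7 to 10 and 0.873 at 11 to 20, so that there the lower share of desert peaks was not seen at equal height.

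One-library desert peaks were about as many in each library at the limit of 100 kb. With 808 Ngn3-OE-only against 803 control-only desert peaks the log2 ratio was 0.0090 (95% CI −0.13 to 0.15). Among nearer intergenic peaks there were 6823 and 5722, a log2 ratio of 0.25 (95% CI 0.20 to 0.30), and over the whole lists the log2 ratio was 0.39. The log2 ratio in deserts minus that among nearer intergenic peaks was −0.24 (95% CI −0.39 to −0.095) and differed from that of all peaks outside deserts by −0.39 (95% CI −0.53 to −0.25). The balance depended on the definition of a desert, with a log2 ratio of 0.13 past 50 kb (95% CI 0.044 to 0.21) and 0.084 with protein-coding genes alone (95% CI 0.024 to 0.14). At a −log10 q of 5 or more in the library of the peak alone, the log2 ratio of one-library desert peaks was −0.28 (95% CI −0.57 to 0.011). With that minimum in both lists it was −0.0036 (95% CI −0.20 to 0.20). With each list cut to its top 50000 peaks it came to −0.40 (95% CI −0.67 to −0.13), so one-library desert peaks were then more often control-only. Under that cut, a peak below the limit in the other list counts as absent. At these settings the ratio was not computed for nearer intergenic peaks or the whole lists.

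The one-library desert peaks of highest −log10 q were modest in tags. In control they were a peak of 15 tags between Khdrbs3 and Fam135b, 1 of 15 tags between Camk1g and Plxna2, 1 of 15 tags between Adamts5 and N6amt1, and peaks of 13 tags between Tenm3 and Aga and between Slc4a3 and Epha4. In Ngn3-OE the highest had 13 tags and lay between Tfap2b and Pkhd1 (chr1:19856877-19856992). A peak of 12 tags between Glra2, a glycine receptor subunit, and Gemin8 on chromosome X followed, as did 3 peaks of 11 tags between Slc4a3 and Epha4, Gpr158 and Myo3a, and Gnat3 and Gnai1, which encode the G protein subunits gustducin and an inhibitory alpha subunit. Where the other library has no peak its tags at that place are not known, so these heights have no counterpart value.

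Strong desert peaks were present in both libraries. In the top 10% of its whole list by −log10 q stood 103 control desert peaks (4.12%, 95% CI 3.41 to 4.97) and 98 Ngn3-OE desert peaks (3.90%, 95% CI 3.21 to 4.74), and each of them was shared, as were nearly all tall nearer intergenic peaks above. A count of 0 one-library peaks allows up to 2.91% and 3.06% among them. The strongest by mean rank lay between Eif4g2 and Galnt18 on chromosome 7, with 90 tags in control and 99 in Ngn3-OE. A peak between Lcorl and Slit2, a secreted axon guidance cue, had 88 and 99 tags, and a peak between Atp5g3 and Lnpk, in the desert on 1 side of the HoxD cluster, had 70 and 80. A peak between Snrpn and Ndn in an imprinted region had 74 and 77 tags but its sequence stood at 2 near-identical places in the genome. Peaks between Celf4 and Pik3c3 (70 and 75 tags) and between Slc13a1 and Iqub (62 and 68 tags) were also among the 8 strongest. None of these 6 differed by more than 0.81 rank percentiles between the libraries, whereas those beside Tox3 and in the Dsel to Cntnap5a desert shifted by −2.04 and −1.69 percentiles.

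Shared desert peaks kept much of their order between the libraries. Each library's peaks were ordered by −log10 q and given a rank percentile, with 100 at the top and 0 at the bottom. Over the 1698 shared control desert peaks the Spearman correlation of the ranks was 0.66 and that of the tags 0.68, as a description across peaks that share their library and are not replicates. Tags were higher in Ngn3-OE at 818 of these peaks, lower at 690 and equal at 190. The median rank shift from control to Ngn3-OE was 0.74 percentiles (quartiles −10.8 and 13.1).

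**Figure D4:**
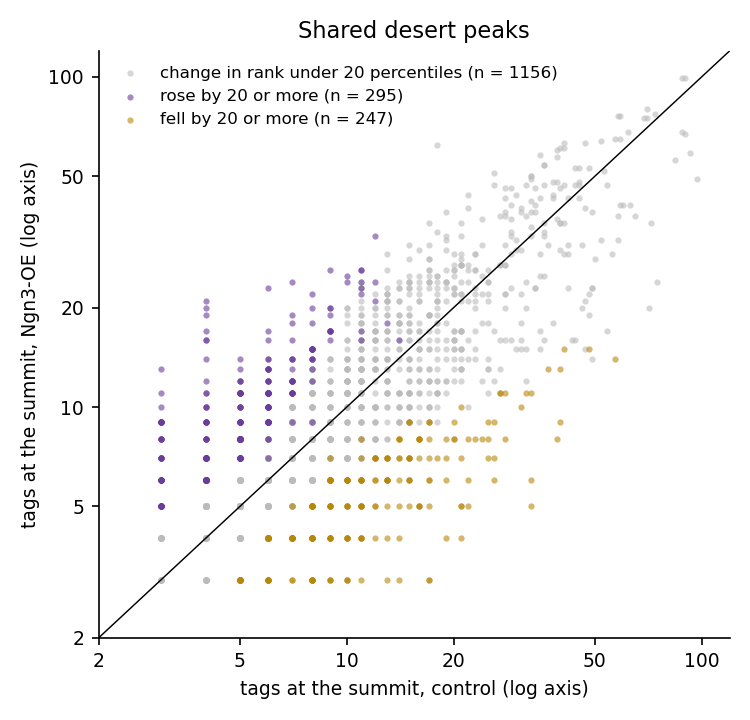
Tags at the summit of 1698 shared desert peaks in control (x) and Ngn3-OE (y), both on log axes, with the line of equality. Purple points rose and gold points fell by 20 rank percentiles or more. The coloured points lay mostly under 30 tags, and several of the highest peaks lay off the line, among them the control peak with the most tags (97 in control and 49 in Ngn3-OE).

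A rank that rose by 20 percentiles or more was found at 295 shared desert peaks (17.4%, 95% CI 15.6 to 19.2), against a background of 16.0% over all shared peaks. A fall of that size was found at 247 (14.5%, 95% CI 12.9 to 16.3), against a background of 10.6%. Nearer intergenic shared peaks rose in 17.2% and fell in 12.9%. The desert share minus the nearer share was 0.16 points for rises (95% CI −1.66 to 2.12) and 1.64 points for falls (95% CI −0.036 to 3.47). In 3 equal bands of mean rank the differences for falls were 0.014, 1.88 and 1.45 points and each interval included 0. No difference from nearer intergenic peaks was detectable.

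The largest rises started from weak control peaks. Between App and Cyyr1 on chromosome 16, at the sequence printed above, the peak had 4 tags in control and 21 in Ngn3-OE and rose by 71.1 percentiles. Between Ttll7 and Adgrl2, a latrophilin receptor of synapses, it went from 6 to 23 tags (68.9 percentiles), with summits 28 bp apart. The largest rise, of 75.1 percentiles from 4 to 20 tags between Kcnt2 and Cdc73, had summits 113 bp apart, and those between Sall1 and Tox3 (4 to 19 tags) and between Tfap2c and Bmp7 (4 to 17 tags) had summits 268 and 252 bp apart. In each of these last deserts the Ngn3-OE peak also overlapped a further control peak, of 11 tags between Sall1 and Tox3 and of 12 tags between Tfap2c and Bmp7, so a stronger control peak already stood there and these are not rises of 1 site.

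The largest falls were at peaks with nearby summits in both libraries. Between Kcnt2 and Cdc73 a second peak (chr1:142159577-142159809) went from 17 tags in control to 3 in Ngn3-OE, a shift of −76.5 percentiles. Between Epha7 and Map3k7 a peak went from 17 to 3 tags, beside Zeb2 (Zeb2 to Acvr2a, chr2:47834509-47834718) from 21 to 4, between Tenm3 and Aga from 14 to 3, and between Pard3 and Nrp1, the semaphorin co-receptor, from 19 to 4. All 5 had summits within 72 bp of each other. The falling peak between Tenm3 and Aga, printed above, held the SOX motif, and 4 of the 5 held the shorter SOX core ATTGT, which is also in 44.1% of all windows of this length in desert territory.

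Moves in rank were counted beside each gene list. Beside retinal regulators 25 of 148 shared desert peaks rose (16.9%) and 20 fell (13.5%), and in deserts with no listed flank 199 of 1156 rose (17.2%) and 171 fell (14.8%). Beside adhesion and guidance genes 63 of 368 rose (17.1%) and 54 fell (14.7%). Beside sensory receptor genes 3 of 10 rose and 2 fell. Beside signalling genes 5 of 16 rose (31.2%, 95% CI 14.2 to 55.6) and 0 fell, which allows up to 18.8%. Single regulators had few such peaks: Sall1 had 5 that rose and 5 that fell, Zeb2 6 and 5, Sox9 2 and 1, and Isl1 1 and 0.

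The sequence around the summits was compared with all 898743 windows of the same length tiled over desert territory. The E-box core CATCTG was in 29.1% of shared desert peaks (494 of 1698, 95% CI 27.0 to 31.3) and in 14.4% of these windows. GGATTA, the core of OTX2 and CRX sites in photoreceptor and bipolar enhancers, was in 22.3% of shared desert peaks and in 7.70% of windows. TAATTA, which many homeodomain factors can bind, was in 16.2% and 9.26%, the SOX motif in 11.01% and 8.05%, and the AP-1 motif in 7.24% and 6.01%. The SOX core ATTGT went the other way, with 39.4% of shared desert peaks and 44.1% of windows. The windows are also lower in GC than the peaks, and the part of base composition in these differences was not tested. A match is a stretch of letters and not a bound site.

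Desert peaks differed from nearer intergenic peaks in which motifs they held. The median GC of the windows was 45.8% for shared desert and 49.3% for nearer shared peaks of the control list. The part of base composition in these differences was not tested. TAATTA was in 16.2% of shared desert peaks against 10.8% of nearer shared peaks, a difference of 5.35 points (95% CI 3.60 to 7.24), and GGATTA in 22.3% against 18.1% (4.13 points, 95% CI 2.12 to 6.25). The E-box core was in 29.1% against 26.2% (2.89 points, 95% CI 0.67 to 5.20) in the control list, but in the Ngn3-OE list in 28.1% against 26.3% (1.80 points, 95% CI −0.39 to 4.09), an interval that includes 0. The CTCF consensus went the other way, with 2.83% of shared desert peaks (48 of 1698) against 6.72% of nearer shared peaks, a difference of −3.89 points (95% CI −4.68 to −2.91). Its share in control fell with distance from 8.37% of shared peaks at 10 to 25 kb to 4.49% at 50 to 100 kb and 2.81% at 100 to 150 kb, and within deserts it was 2.34% at 150 to 200 kb and 4.0% (11 of 275) at 200 to 300 kb. The SOX core ATTGT was in 39.4% of shared desert peaks against 29.6% of nearer ones, 9.81 points apart (95% CI 7.40 to 12.3), the widest of these differences. The longer SOX motif (1.16 points, 95% CI −0.32 to 2.80) and the AP-1 motif (0.54 points, 95% CI −0.67 to 1.92) had intervals that included 0.

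Between the libraries GGATTA differed in one-library desert peaks. It was in 193 of 808 Ngn3-OE-only desert peaks (23.9%, 95% CI 21.1 to 26.9) and in 93 of 803 control-only desert peaks (11.6%, 95% CI 9.55 to 13.98), which put the shares 12.3 points apart (95% CI 8.61 to 16.0). The share in Ngn3-OE-only peaks was close to the 22.3% of shared peaks, and that of control-only peaks was nearer to the 7.70% of windows. Among one-library desert peaks with a −log10 q of 5 or more the shares were 29.3% of 174 and 8.53% of 211, a difference of 20.8 points (95% CI 13.04 to 28.6). The Ngn3-OE-only peak between Glra2 and Gemin8 printed above held 1 such match, as did the rising peak between App and Cyyr1.

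The SOX motif had the opposite balance. It was in 67 Ngn3-OE-only desert peaks (8.29%, 95% CI 6.58 to 10.4) and in 106 control-only desert peaks (13.2%, 95% CI 11.03 to 15.7), so the first share minus the second was −4.91 points (95% CI −7.95 to −1.89). With the core ATTGT the shares were 33.8% and 46.2%, a difference of −12.4 points (95% CI −17.1 to −7.64). Of the Ngn3-OE-only desert peaks 26.2% held the E-box core and of the control-only ones 22.4%, 3.82 points apart (95% CI −0.37 to 8.0). A longer E-box consensus, which contains the core, was in 5.69% and 2.99%, 2.70 points apart (95% CI 0.71 to 4.77). TAATTA was less frequent in Ngn3-OE-only than in control-only desert peaks (11.6% against 15.2%, −3.56 points, 95% CI −6.90 to −0.23). At a −log10 q of 5 or more in the library of the peak the TAATTA difference was −2.05 points (95% CI −8.86 to 5.05), which includes 0. With 250 bp on either side of the summit the SOX difference was −3.74 points (95% CI −7.83 to 0.36), an interval that includes 0. At a −log10 q of 5 or more in the library of the peak the E-box difference was 9.68 points (95% CI 1.23 to 18.2), but with that minimum in both lists it was 5.25 (95% CI −0.61 to 11.1), an interval that includes 0. The first of these settings gave a SOX difference of −9.12 points (95% CI −15.5 to −2.53).

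For most motifs no difference between deserts and nearer regions was detectable in this balance. Among nearer intergenic one-library peaks the Ngn3-OE-only minus control-only difference was 10.9 points for GGATTA, −6.38 for the SOX motif and 5.71 for the E-box core. The desert difference minus the nearer difference was 1.41 points for GGATTA (95% CI −2.48 to 5.31), 1.47 for SOX (95% CI −1.73 to 4.68) and −1.89 for the E-box core (95% CI −6.34 to 2.55). The CTCF consensus was the exception, with 2 of 808 Ngn3-OE-only desert peaks (0.248%) against 15 of 803 control-only ones (1.87%) in deserts, and 2.01% against 2.04% nearer to genes. Its desert difference minus its nearer difference was −1.58 points (95% CI −2.70 to −0.47), on those 17 desert peaks. The AP-1 motif differed by −2.04 points in deserts (95% CI −4.80 to 0.71).

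**Figure D5:**
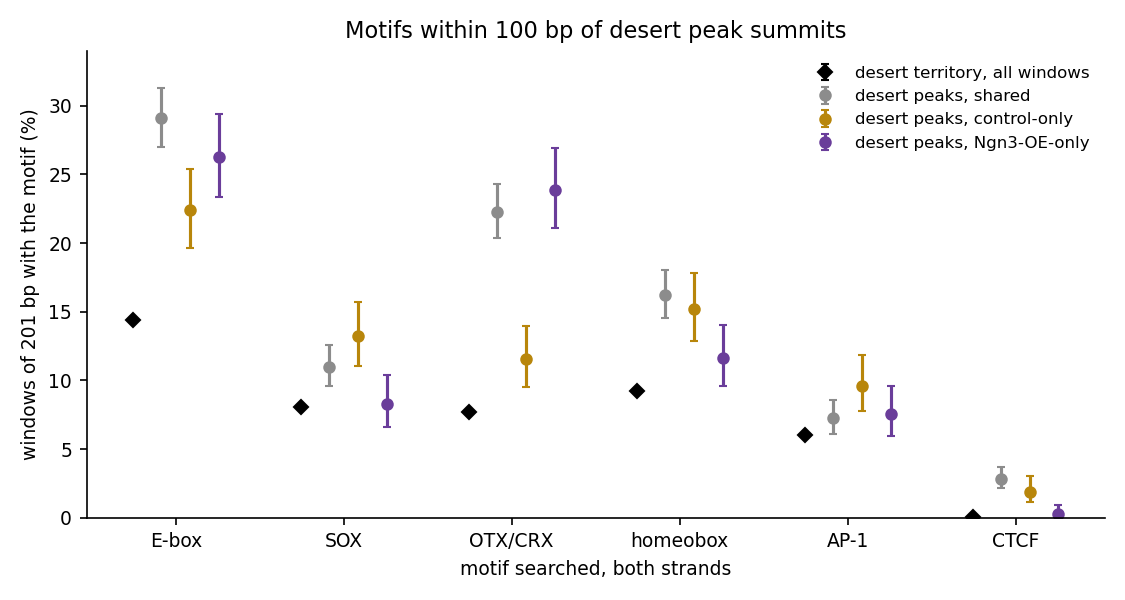
Percentage of windows of 100 bp on either side of the centre that held each motif on either strand, for all windows of desert territory (black diamonds), shared desert peaks from the control list (grey), control-only (gold) and Ngn3-OE-only (purple) desert peaks, with 95% Wilson intervals. For GGATTA (OTX/CRX) the shared and Ngn3-OE-only peaks stood at 22.3% and 23.9% and the control-only peaks at 11.6%, and for SOX the control-only peaks stood highest at 13.2%.

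Shared desert peaks that moved in rank were compared in the same way. All windows here were centred on the control summit, and the Ngn3-OE summit of a pair can lie outside them. The 424 peaks with the largest rises (median shift 24.6 percentiles, median tags 5 in control and 9 in Ngn3-OE) were compared with the 424 with the largest falls (median shift −23.2 percentiles, median tags 10 and 6). GGATTA was in 28.3% of the rising and 11.3% of the falling peaks, a difference of 16.98 points (95% CI 11.7 to 22.2). The SOX motif was in 8.73% and 15.3%, a difference of −6.60 points (95% CI −11.01 to −2.23), and the E-box core in 29.7% and 24.5%, a difference of 5.19 points (95% CI −0.80 to 11.1). With 250 bp on either side the SOX difference was −2.83 points (95% CI −8.52 to 2.89), an interval that includes 0. TAATTA (−3.07 points, 95% CI −8.24 to 2.12) and AP-1 (0 points, 95% CI −3.76 to 3.76) had intervals that included 0.

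Beside single regulators the strongest peaks held these motifs in different mixtures. The peak beside Meis2 held 2 SOX matches and 1 TAATTA. The peak in the Zeb2 to Acvr2a desert held TAATTA 4 times, and the peak between Rarb and Thrb held GGATTA at 2 places. The strongest Sall1 and Tox3 peak held 1 E-box core and the Atp5g3 to Lnpk peak held 2. The strongest peaks beside Sox9, Isl1, Sox2 and Sox11 held none of the 6 motifs shown in capitals, which says only that those letters are not in these windows. In the Gnat3 to Gnai1 peak, called in Ngn3-OE alone, an E-box core lay inside a match to the CTCF consensus. Only 2 of 808 Ngn3-OE-only desert peaks held that consensus.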

How the data were processed

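ATAC-seq peaks of 1 control and 1 Ngn3-OE library were analysed. The authors trimmed reads with Trimmomatic, aligned them to mm10 with Bowtie2, removed duplicates (Picard), mitochondrial reads (SAMtools) and blacklisted regions (bedtools), kept short fragments, shifted ends for Tn5 with deepTools and called peaks per library with MACS2. The deposited peak tables hold a display score (not used), a summit fold enrichment over local background (a ratio) and −log10 p and −log10 q values. Lines that repeat an interval for a further summit were merged to the strongest (128853 and 136761 lines), 159 and 150 lines off the assembled chromosomes were left out, and 1 and 3 lines with no summit, none of them a desert peak, took their midpoint.

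Gene bodies and starts came from GENCODE M21 (55413 genes). Tags at a summit were solved from fold enrichment and −log10 p, and total read depth is not given by these files. Intervals are Wilson (shares), Newcombe (differences), Poisson (densities) or log-normal (ratios), at 95%. Copies were blastn 2.17.0 hits with at least 90% coverage and 95% identity. Python 3.11.15, numpy 2.4.6, scipy 1.17.1 and matplotlib 3.10.9 were used, and the scripts were tested on simulated data. With 1 library per group no p-value was computed. Peaks were named by fixed rules: the strongest shared, one-library and most shifted peaks, those farthest and nearest the limit, the 12 regulators and 6 gaps with most regions, of which 1 regulator is not reported here. Members and gene lists were chosen with earlier results of these data known. Alternatives changed the distance limit, annotation, −log10 q minimum, overlap rule, repeats, motif form and rank limit.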

Additional observations from a re-analysis of the deposited data

How the results depend on the processing

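Of 168 recounts of 16 results, 117 stayed within the 95% interval of the value reported (counts within 1.5 times of it), 51 moved further, and the sign changed only for the log2 ratio of one-library desert peaks, whose interval includes 0 as reported. The tally includes density ratios without X and Y, where their peaks but not their territory were left out. It also includes the ratio of deserts to the rest of the genome without summits in repeats, which were taken out of the deserts alone. These are not matched recounts. No paired analysis was possible because each group has 1 library, which also leaves no replicate to omit. The basic annotation, a −log10 q of at least 10, leaving out X and Y, and leaving Sall1 off its list were chosen after seeing the data. One-library peaks rest on a median of 5 and 4 tags, and the part of depth was not tested.

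Desert peaks in control and Ngn3-OE numbered 7131 and 7329 past 50 kb, 524 and 524 past 200 kb, 14819 and 15110 when coding genes only were used, and 1443 and 1439 with a −log10 q of at least 5 in both lists. Control sharing was 70.4% past 50 kb, 70.1% with protein-coding genes alone, 71.9% with a −log10 q of at least 5 in both lists, 85.4% with that minimum in the queried list alone, 56.5% with 50% overlap of both peaks and 64.8% with summits within 100 bp. Ngn3-OE sharing was 71.9%, 87.9%, 56.3% and 64.6% under the last 4 of these and 74.1% among the top 50000 peaks. The control difference from nearer intergenic peaks was −4.01 points past 50 kb. The log2 ratio of one-library desert peaks was 0.13 past 50 kb (95% CI 0.044 to 0.21), 0.084 with coding genes only (95% CI 0.024 to 0.14), −0.0036 with a −log10 q of at least 5 in both lists, −0.28 with that minimum in the queried list (95% CI −0.57 to 0.011) and −0.40 among the top 50000 (95% CI −0.67 to −0.13).

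Between one-library desert peaks the E-box difference was 9.68 points with a −log10 q of at least 5 in the queried list and 9.43 with at least 10 (95% CI −13.3 to 36.7). The SOX difference was −9.12 and −8.86 points under these (95% CI of the latter −28.4 to 17.3), −11.1 among the top 50000 and −12.4 with the core ATTGT, and its interval included 0 with 250 bp on either side (−3.74, 95% CI −7.83 to 0.36) and past 200 kb (−5.40, 95% CI −12.3 to 1.42). The E-box interval excluded 0 past 50 kb (5.92) and with coding genes only (6.14), and the difference was smaller, with 0 inside the interval, past 200 kb (1.48), with 50% overlap (1.81), with summits within 100 bp (2.94) and with 50 bp on either side (1.27, 95% CI −2.23 to 4.77). Between the most rising and most falling shared peaks the E-box difference was 15.1 points among the top 50000, and the SOX difference was −11.2 with a −log10 q of at least 5 in both lists, −14.4 among the top 50000 and −15.3 with the core, with intervals that included 0 at 250 bp on either side (−2.83, 95% CI −8.52 to 2.89) and past 200 kb (−6.82, 95% CI −16.6 to 2.80). That E-box interval excluded 0 past 50 kb (9.64), with coding genes only (8.24), with a −log10 q of at least 5 in both lists (9.62) and among the top 50000, and the difference was smaller, with 0 inside the interval, past 200 kb (1.14), with 50% overlap (2.83), with 50 bp on either side (2.12) and with 250 bp (1.42, 95% CI −5.21 to 8.02). The control density ratio was 0.349 past 50 kb, 0.264 past 200 kb, 0.315 with protein-coding genes alone and 0.261 with a −log10 q of at least 5 in both lists. It was 0.270 when desert peaks with summits in repeats were counted among the other peaks, so it does not measure the part of repeats.

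Strong desert peaks in control and Ngn3-OE numbered 279 and 300 past 50 kb, 25 and 20 past 200 kb, 602 and 623 when coding genes only were used, 49 and 48 with a −log10 q of at least 5 in both lists, 19 and 13 among the top 50000, 27 and 30 for the top 5%, and 284 and 289 for the top 20%. The cause was not tested, other than that these settings change how many peaks are counted.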

Other observations

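Several deserts outside the 6 described above were picked after their values were seen. In the gap between Adamts5, a matrix protease, and N6amt1 on chromosome 16 the most tags at any desert peak were 75 in control and 24 in Ngn3-OE, and 2 control but 0 Ngn3-OE peaks stood in the top 10% of their list. In the gap between Camk1g and Plxna2, a semaphorin receptor, on chromosome 1 there were 1 control-only and 8 Ngn3-OE-only regions beside 10 shared. Between Fat4, an atypical cadherin, and Intu on chromosome 3 there were 3 and 9 beside 6 shared. The opposite balance was found between Insc and Sox6 on chromosome 7, with 10 control-only and 3 Ngn3-OE-only regions beside 5 shared, and between Tenm2 and Mat2b on chromosome 11, with 4 and 0 beside 10 shared. Among 70 gaps the largest excess was 7 for Ngn3-OE-only and 8 for control-only regions, and with 1 library per group none of these was tested.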
